A study of Mus musculus with 8 samples.

Results

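The genes described here are 10 that encode ion channels of microglia, or the sensor that opens one of them. They are the potassium channel genes *Kcnk13*, *Kcnk6*, *Kcnj2*, *Kcna3* and *Kcnn4*, the proton channel gene *Hvcn1*, the TRP channel genes *Trpv2* and *Trpm2*, and the calcium entry genes *Orai1* and *Stim1*. They were chosen by name as known channels of microglia, by a rule that uses no measured value but with earlier results of these data known, and all 10 were found among the 55573 genes of the deposited raw count table. Of the 10, 5 were lower in mutant than in control microglia, and the other 5 passed no test in either direction. Over all genes tested, 7.97% were lower and 4.36% higher by the same test. Among the lower genes, *Kcnk13* passed in only 2 of 8 fits that leave out 1 mouse.

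RNA was sequenced from microglia sorted from the brain at postnatal day 60, with 1 library from each of 8 mice. The 4 mutant mice, SmadKO in the labels, were taken from the study to be *Smad2/3 fl/fl;Cx3cr1 Cre*, so that both genes, which encode the transcription factors that carry the TGFβ signal to the nucleus, were targeted in cells that express *Cx3cr1*. This driver acts in microglia and also in related macrophages. The 4 control mice are called WT in the labels and littermates in the series description; the study's methods say that the controls in general carried Cre and a floxed allele, and which of these holds for each control mouse was not given. All lines had been crossed to C57BL6/J. The labels name no gate; the study's methods describe a Percoll gradient for this line and flow cytometry of live single cells for tdTomato, CD45 and CD11b, the latter pair being surface markers of leukocytes and of myeloid cells.

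As background, microglia hold a negative resting potential through potassium channels, and their inward driving force for calcium depends on it. *Kcnk13* encodes THIK-1, a tandem pore leak channel that carries the resting potassium current of ramified microglia and is opened further when ADP acts on the P2Y12 receptor. *Kcnk6* encodes TWIK-2, a relative known for the potassium efflux that precedes inflammasome activation. *Kcnj2*, *Kcna3* and *Kcnn4* encode Kir2.1, Kv1.3 and KCa3.1, which are best known from activated or cultured microglia. *Hvcn1* encodes the proton channel Hv1, which lets protons leave the cell while the NADPH oxidase moves electrons outward. In store-operated calcium entry, STIM1 in the endoplasmic reticulum membrane senses that the store is empty and opens ORAI1 in the plasma membrane.

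The sequences upstream of 3 of the lower genes are shown, picked after the calls were known. SMAD proteins bind DNA, but whether they act on these genes was not tested. Promoter windows from RefSeq on GRCm38.p6, reaching from 250 bases before to 50 bases after an annotated start, were found for 8 of the 10 genes and numbered 10. *Kcnk6* and *Hvcn1* had no entry. The 250 upstream bases are printed 5′ to 3′ on the plus strand; capitals mark a SMAD box (CAGAC or GTCTG) in *Kcnk13* and a PU.1 motif (GAGGAAGT) in *Trpv2*, and *Orai1* held no motif searched. The windows lie at chr12:99964249-99964498 for *Kcnk13*, chr11:62574236-62574485 for *Trpv2* and chr5:123014824-123015073 for *Orai1*.
*Kcnk13*: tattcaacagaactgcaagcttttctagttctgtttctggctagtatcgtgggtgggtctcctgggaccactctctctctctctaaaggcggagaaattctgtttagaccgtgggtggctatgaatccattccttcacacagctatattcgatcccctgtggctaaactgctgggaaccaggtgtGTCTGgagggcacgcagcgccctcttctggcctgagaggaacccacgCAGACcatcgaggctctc
*Trpv2*: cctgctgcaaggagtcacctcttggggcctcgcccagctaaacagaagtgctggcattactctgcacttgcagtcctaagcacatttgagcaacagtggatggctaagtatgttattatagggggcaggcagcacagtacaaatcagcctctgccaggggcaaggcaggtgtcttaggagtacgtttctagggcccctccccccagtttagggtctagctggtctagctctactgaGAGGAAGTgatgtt
*Orai1*: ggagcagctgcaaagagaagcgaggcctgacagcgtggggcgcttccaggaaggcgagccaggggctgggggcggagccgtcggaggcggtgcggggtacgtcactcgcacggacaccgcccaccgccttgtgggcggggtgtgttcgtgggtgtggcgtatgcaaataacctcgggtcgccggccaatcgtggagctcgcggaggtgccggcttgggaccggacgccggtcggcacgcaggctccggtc

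Both strands of each whole window were searched. The SMAD box was found in 4 of the 10 windows, those of *Kcnk13*, *Kcnj2*, *Kcna3* and *Kcnn4*, and 49.6% of 32851 mouse promoter windows of the same length hold it. Of these 4 genes, *Kcnk13* was the one called lower in the mutants. The SMAD palindrome GTCTAGAC, which does not contain the box, was found in 0 of the 10 windows and in 0.213% of all windows. The PU.1 motif, GAGGAAGT or ACTTCCTC, named for the myeloid factor, was found in 2 overlapping windows of *Trpv2* and in 3.20% of all windows. A match describes letters in a window and is not evidence of binding.

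Libraries held 35639502 to 41946479 counts, and of 20153 genes tested 2485 were called, 878 higher and 1607 lower in the mutants. Levels are given as CPM, a gene's reads relative to the TMM-scaled size of its library. *Smad3* was lower in the mutants, at 19.3 ± 11.03 CPM against 48.7 ± 7.13 CPM in controls (mean ± SD, n = 4 each; log2 fold change -1.33, edgeR adjusted p = 0.0429), with mutant 3 the highest at 35.1 CPM; this call was kept in 1 of 8 fits that leave out 1 mouse, that without mutant 3, with an edgeR adjusted p of 0.0565 to 0.110 in the other 7. *Smad2* was at 58.8 ± 14.96 CPM against 74.6 ± 13.8 CPM, without a call (log2 fold change -0.34, edgeR adjusted p = 0.340); these are counts over the whole gene, and the floxed exons were not read separately. *Xist* lay between 99.5 and 183 CPM in the 4 controls and between 0.0276 and 0.562 CPM in the 4 mutants, and Y-linked *Ddx3y* split the other way, so that the groups differed in apparent sex as well as in genotype, and these cannot be told apart for any gene described here, autosomal genes included. Of 10 microglial markers 9 were lower, their sum lying between 31440 and 47900 CPM in controls and between 5724 and 8005 CPM in mutants; the exception was *Aif1*, named after its value was seen. *P2ry12* was at 3.50% and *Tmem119* at 8.96% of their control means, while *Sall1* was at 1.45%. Of 7 markers of border macrophages 5 were higher, with summed CPM of 52.9 to 99.1 in controls and 1632 to 2537 in mutants. The part of these marker shifts in the results that follow was not tested. In bulk samples, fewer cells of a type and less RNA per cell cannot be told apart.

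Of the 10 channel genes, all of which passed the count filter, 5 were lower, 0 were higher and 5 had no call at an edgeR adjusted p under 0.05. The lower genes were *Hvcn1*, *Kcnk6*, *Trpv2*, *Kcnk13* and *Orai1*, 2 potassium channels, the proton channel, a TRP channel and the pore of store-operated entry. Over all genes tested, 12.3% were called in either direction, 7.97% lower and 4.36% higher. In those same 5 genes every mutant lay below every control. Of all genes tested, 22.1% had groups without overlap in CPM, a share that counts both directions. The median log2 fold change of the 10 genes was -0.88, against 0.01 over all genes tested. Of the 10 fold changes 9 were negative and 1, that of *Kcna3*, was positive.

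**Figure D1:**
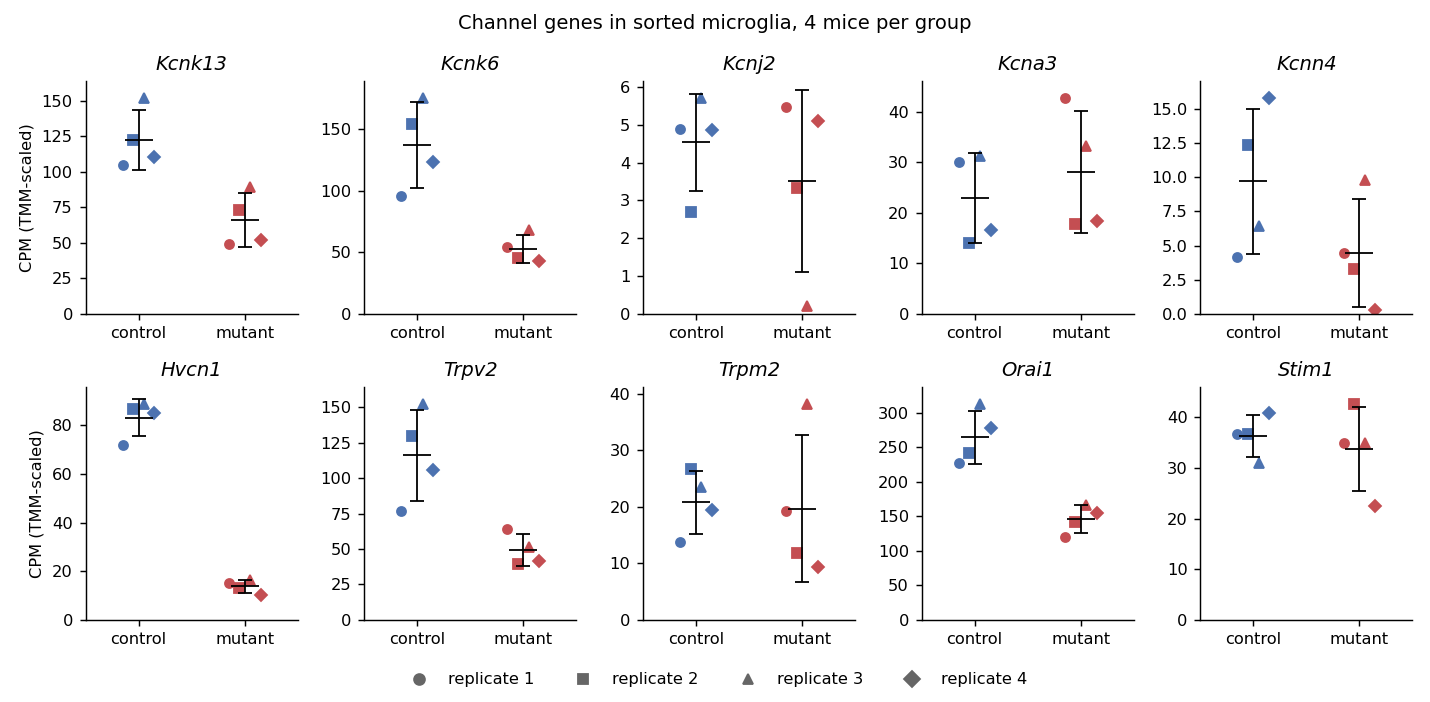
Level of each of the 10 channel genes in CPM (TMM-scaled, linear axes from 0) in 4 control and 4 mutant mice. Symbols are mice, with the same symbol for the same replicate number; the horizontal line and error bar are the mean and SD. In *Kcnk13*, *Kcnk6*, *Hvcn1*, *Trpv2* and *Orai1* all mutants lie below all controls, and in the other 5 genes the groups overlap.

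Among the potassium channels, both tandem pore genes were lower and the inward rectifier, Shaker-type and calcium-activated genes had no call. *Kcnk13* (chr12:99964499-100062682, plus strand, GRCm38) was at 104.8, 122.5, 151.8 and 110.6 CPM in controls 1 to 4, and at 49.4, 73.3, 89.1 and 52.1 CPM in mutants 1 to 4. Control 3 and mutant 3 were each the highest of their group, and the lowest control was above the highest mutant. The mean fell from 122.4 ± 21.0 to 66.0 ± 18.8 CPM (SD, n = 4 each), 53.9% of the control mean (log2 fold change -0.89, SE 0.22, 95% interval -1.40 to -0.39, edgeR adjusted p = 0.0328). This call was kept in 2 of the 8 fits that leave out 1 mouse. Without control 2, 3 or 4 or mutant 1, 2 or 4 the edgeR adjusted p was 0.0572 to 0.0864, while the log2 fold change stayed between -1.07 and -0.77 in all 8.

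*Kcnk6* (chr7:29221926-29232515, minus strand) was at 95.5, 154.3, 175.3 and 123.8 CPM in the controls, and at 54.0, 45.2, 68.5 and 42.5 CPM in the mutants. Control 1 was the lowest of its group and still above all 4 mutants. The mutant mean of 52.5 ± 11.7 CPM was 38.3% of the control mean of 137.2 ± 34.9 CPM (SD, n = 4 each; log2 fold change -1.39, SE 0.23, 95% interval -1.91 to -0.86, edgeR adjusted p = 0.00525). It stayed called with any mouse left out, at log2 fold changes of -1.54 to -1.25.

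Among the other tandem pore genes, *Kcnk12* was the single call. Of 12 further genes of the family 9 were tested, with 1 lower, 0 higher and 8 without a call, and a median log2 fold change of 0.36. *Kcnk1*, named after its values were seen, was not called. It lay at 20.8 to 71.0 CPM in controls and 77.2 to 101.9 CPM in mutants with no overlap (log2 fold change 0.72, edgeR adjusted p = 0.189). *Kcnk12* encodes THIK-2, the closest relative of THIK-1, with which it can assemble. It was at 82.3, 90.6, 93.5 and 85.6 CPM in controls and at 3.56, 3.00, 0.0279 and 5.49 CPM in mutants, the third of which had 1 count. The mutant mean was 3.43% of the control mean (log2 fold change -4.86, SE 0.86, edgeR adjusted p = 0.00664), against 53.9% for *Kcnk13*. Per kilobase of exon, the level of *Kcnk12* was 0.971 to 1.24 times that of *Kcnk13* in the 4 control libraries and 0.000494 to 0.167 times in the mutant libraries. The ratio was chosen after the values were seen and is given without a test.

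*Kcna3* (chr3:107036169-107038070, plus strand) had the single positive fold change. It was at 30.0, 14.1, 31.3 and 16.6 CPM in the controls and at 42.7, 17.9, 33.2 and 18.4 CPM in the mutants, with means of 23.0 ± 8.93 and 28.0 ± 12.1 CPM (SD, n = 4 each). In both groups replicates 1 and 3 were high and 2 and 4 low, and the groups overlapped (log2 fold change 0.29, SE 0.37, 95% interval -0.55 to 1.12, edgeR adjusted p = 0.668). Of 10 other Kv1 and beta subunit genes 6 were tested, with none called and a median log2 fold change of -0.11; the best expressed, *Kcnab2* and *Kcna1*, gave log2 fold changes of 0.68 and -0.12. The per-kilobase ratio of *Kcnk13* to *Kcna3* was 2.13 to 5.31 in controls and 0.706 to 2.51 in mutants. These ranges overlap through mutant 2, and the ratio was chosen after the values were seen.

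*Kcnj2* and *Kcnn4* had few counts in 1 mutant each and were not called. *Kcnj2* (chr11:111066164-111076821, plus strand) was at 4.89, 2.68, 5.71 and 4.87 CPM in controls and at 5.48, 3.33, 0.195 and 5.11 CPM in mutants. Mutant 3 had 7 counts, and the other 3 mutants lay within the range of the controls. The log2 fold change was -0.36 (SE 0.75, 95% interval -2.06 to 1.33, edgeR adjusted p = 0.805) and 0.03 without mutant 3. *Kcnn4* (chr7:24370263-24386690, plus strand) was at 4.19, 12.4, 6.44 and 15.8 CPM in controls and at 4.47, 3.26, 9.83 and 0.304 CPM in mutants. Mutant 4 had 11 counts and control 4 had 588, with the remaining values interleaved. The log2 fold change of -1.12 (SE 0.81, 95% interval -2.95 to 0.71, edgeR adjusted p = 0.409) became -0.73 without mutant 4, -0.75 without control 4 and -1.86 without mutant 3. Both intervals hold 0 and also a 2-fold fall.

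Relatives of these channels gave 1 further call. Of 8 other calcium-activated potassium genes 5 were tested and 1 was lower. This was *Kcnma1*, the pore of the large conductance BK channel, at 24.6, 15.8, 15.4 and 19.6 CPM in controls and 1.53, 1.69, 1.56 and 0 CPM in mutants (log2 fold change -3.97, SE 0.88, edgeR adjusted p = 0.0186). Of 14 other inward rectifier genes 6 were tested and none was called. The best expressed were *Kcnj13*, known from epithelium of the choroid plexus, and *Kcnj10*, known from astrocytes. *Kcnj10* was at 6.72 to 36.5 CPM in controls, with control 1 the highest, and at 24.5 to 63.7 CPM in mutants. Its groups overlapped (log2 fold change 1.53, SE 0.53, edgeR adjusted p = 0.0944). *Kcnj13* was at 41.6 to 173 CPM in controls and 192 to 305 CPM in mutants (log2 fold change 0.91, edgeR adjusted p = 0.153). The choroid plexus markers, a list added after values were seen, summed to 10730 to 34430 CPM in controls and 37590 to 55300 CPM in mutants with 0 of 8 called. Cells of that epithelium carry neither CD45 nor CD11b, the markers of the sort described in the methods, and the part of these transcripts in the level of *Kcnj13* was not tested.

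**Figure D2:**
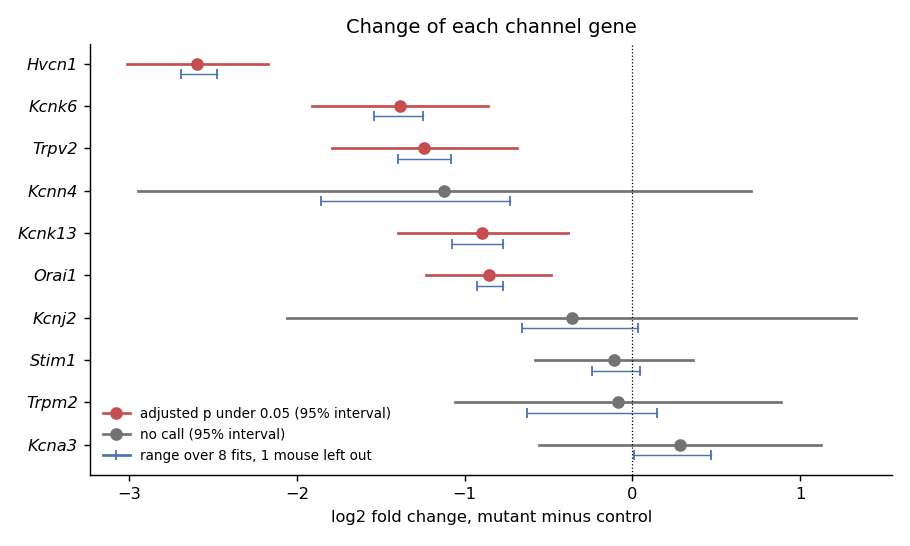
Log2 fold change of mutants over controls for the 10 channel genes, ordered by size. Points and thick lines are the estimate and 95% interval of the edgeR fit, red where the adjusted p was under 0.05; the thin blue line below each is the range over 8 fits that each leave out 1 mouse. *Hvcn1* lies lowest at -2.59, the intervals of *Kcnj2* and *Kcnn4* are the widest, and the blue ranges of *Kcnj2*, *Trpm2* and *Stim1* cross 0.

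*Hvcn1* had the largest change of the 10. *Hvcn1* (chr5:122206804-122242297, plus strand) was at 71.95, 86.6, 88.6 and 85.2 CPM in controls and at 15.3, 13, 16.4 and 10.3 CPM in mutants. The lowest control, control 1, was far above the highest mutant, mutant 3. The mean fell from 83.1 ± 7.54 to 13.8 ± 2.70 CPM (SD, n = 4 each), a 6.03-fold difference (log2 fold change -2.59, SE 0.19, 95% interval -3.01 to -2.17, edgeR adjusted p = 7.84e-05). With any mouse left out the log2 fold change lay between -2.69 and -2.48 and stayed called. Exons of *Tctn1*, a ciliary gene on the opposite strand, cover 1574 bases or 44.2% of the exons of *Hvcn1*, and the libraries are labelled unstranded, so reads from that stretch cannot be assigned to either gene by strand; whether the counting kept them was not given. *Tctn1* itself was at 8.94 ± 2.40 CPM in controls and 7.62 ± 0.525 CPM in mutants (log2 fold change -0.23, edgeR adjusted p = 0.601).

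The subunits of the NADPH oxidase, the enzyme whose charge Hv1 balances, went in both directions. Of 6 genes 1 was higher, 1 lower and 4 had no call, with a median log2 fold change of -0.03. *Cybb*, the catalytic subunit gp91phox, rose from 92.5, 89.7, 36.5 and 37.8 CPM in controls to 498, 404, 582 and 438 CPM in mutants. All mutants were above all controls (log2 fold change 2.91, SE 0.36, edgeR adjusted p = 0.00107). *Ncf1*, the cytosolic organizer p47phox, fell from 472 ± 82.8 to 88.6 ± 23.2 CPM (SD, n = 4 each; log2 fold change -2.41, SE 0.23, edgeR adjusted p = 2.49e-04). The per-kilobase ratio of *Cybb* to *Hvcn1*, chosen after the values were seen, was 0.253 to 0.788 in the control libraries and 19.1 to 26.0 in the mutant libraries. With the same *Hvcn1* counts divided by only the 1989 exon bases that *Tctn1* does not share, the ratio was 0.141 to 0.440 and 10.6 to 14.5. That length applies only if no counted read lay in the shared stretch, which was not given.

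Of the TRP channels, *Trpv2* was lower and *Trpm2* was not called. *Trpv2*, a calcium-permeable cation channel of macrophages (chr11:62574486-62600515, plus strand), was at 76.5, 129.5, 152.1 and 106.1 CPM in controls and at 64.1, 39.7, 51.1 and 41.7 CPM in mutants. Control 1 was the lowest control and mutant 1 the highest mutant, and these were the closest values of the groups. The mean fell from 116 ± 32.4 to 49.2 ± 11.2 CPM (SD, n = 4 each), 42.4% of control (log2 fold change -1.24, SE 0.25, 95% interval -1.79 to -0.69, edgeR adjusted p = 0.0117). With any mouse left out it stayed called, at log2 fold changes of -1.39 to -1.08.

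*Trpm2*, a calcium-permeable channel opened by ADP-ribose under oxidative stress (chr10:77907722-77970563, minus strand), was at 13.7, 26.7, 23.5 and 19.4 CPM in controls. In mutants it was at 19.2, 11.8, 38.1 and 9.39 CPM. The mutants spread around the controls, with mutant 3 the highest and mutant 4 the lowest of all 8 libraries. The log2 fold change was -0.08 (SE 0.43, 95% interval -1.06 to 0.89, edgeR adjusted p = 0.928), and it was -0.63 without mutant 3 and 0.15 without mutant 4. Among other members of these families 1 of 5 Trpv and 4 of 7 Trpm genes were tested and none was called. *Trpv4* was at 20.7 to 67.4 CPM in controls and 88.9 to 137 CPM in mutants (log2 fold change 1.05, edgeR adjusted p = 0.0789). *Trpm3* was at 48.6 to 157 and 158 to 288 CPM and *Trpm7*, the channel kinase, at 22.4 to 35.96 and 19.3 to 30.5 CPM. *Trpm4*, a calcium-activated cation channel named after its values were seen, was not called and lay at 20.0 to 46.6 CPM in controls and 0.613 to 13.1 CPM in mutants with no overlap (log2 fold change -2.30, SE 0.72, edgeR adjusted p = 0.0710). As for *Kcnj13*, control 3 was the lowest library for *Trpv4* and *Trpm3*, as it was for the summed choroid plexus markers, whose part in these levels was not tested.

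For store-operated calcium entry, the pore was lower and its sensor was not called. *Orai1* (chr5:123015074-123030456, plus strand) was at 227, 241, 312 and 277 CPM in controls and at 119.7, 142, 167 and 155 CPM in mutants. Per kilobase of exon it was the most abundant of the 10 genes in every library, and no mutant reached the lowest control. The mean fell from 264 ± 38.1 to 146 ± 20.2 CPM (SD, n = 4 each), 55.2% of control (log2 fold change -0.86, SE 0.16, 95% interval -1.23 to -0.49, edgeR adjusted p = 0.00998), and it stayed called with any mouse left out, at log2 fold changes of -0.93 to -0.77.

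*Stim1* (chr7:102267806-102437319, plus strand) was at 36.8, 36.8, 30.9 and 40.8 CPM in controls and at 34.9, 42.6, 35.0 and 22.4 CPM in mutants. Mutants 1, 2 and 3 lay within or above the range of the controls and mutant 4 lay below it. The log2 fold change was -0.11 (SE 0.21, 95% interval -0.58 to 0.36, edgeR adjusted p = 0.791), an interval that reaches neither a fall of the size of *Orai1* nor a rise of that size. The per-kilobase ratio of *Orai1* to *Stim1*, chosen after the values were seen, was 27.9 to 45.6 in controls and 15.1 to 31.2 in mutants, overlapping through mutant 4.

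Of the 8 other genes of store-operated entry 3 were lower, 0 were higher and 5 had no call, with a median log2 fold change of -0.15. *Orai2*, a second pore subunit, was at 55.6 ± 15.7 CPM in controls and 23.4 ± 4.59 CPM in mutants (SD, n = 4 each; log2 fold change -1.25, SE 0.24, edgeR adjusted p = 0.0104). *Saraf*, which turns store-operated entry off, was at 571 ± 121 and 323 ± 35.6 CPM (log2 fold change -0.82, SE 0.18, edgeR adjusted p = 0.0189). *Tmem110*, whose product STIMATE aids STIM1 at junctions of the endoplasmic reticulum and plasma membrane, was at 38.1 ± 5.41 and 16.3 ± 5.55 CPM (log2 fold change -1.23, SE 0.25, edgeR adjusted p = 0.0135). Each of these 3 genes had all mutants below all controls. *Saraf* lost its call without mutant 2 or mutant 4 (edgeR adjusted p = 0.0533 and 0.0543).

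Upstream and downstream of calcium entry, 6 genes were lower and 1 was higher. Of 11 tested genes of store release and calcium pumping 3 were lower and 1 higher. *Plcg2* and *Plcb2*, phospholipases that make inositol trisphosphate, were at 28.1% and 33.8% of control (log2 fold changes -1.83 and -1.57, edgeR adjusted p = 0.00605 and 0.00366). *Itpr2*, a receptor through which that messenger empties the store, fell from 122.5 ± 24.8 to 39.7 ± 6.53 CPM (SD, n = 4 each; log2 fold change -1.63, SE 0.19, edgeR adjusted p = 8.86e-04). *Atp2b1*, a plasma membrane pump that exports calcium, rose from 85.0 ± 4.78 to 184 ± 33.3 CPM (log2 fold change 1.11, SE 0.16, edgeR adjusted p = 0.00255). Of 10 tested calcineurin and NFAT genes 3 were lower and 0 higher. *Rcan1*, a calcineurin regulator, and *Calm2*, a calmodulin gene, gave log2 fold changes of -1.41 and -0.84 (edgeR adjusted p = 0.0133 and 0.00442), and *Nfatc1*, an NFAT transcription factor, gave -0.89 (edgeR adjusted p = 0.0465) with its groups overlapping by mutant 3. The call of *Nfatc1* was lost without control 2, 3 or 4 or mutant 1, 2 or 4 (edgeR adjusted p = 0.0555 to 0.126).

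Of 7 genes of the P2Y12 receptor and the inflammasome, which lie before and after potassium efflux through THIK-1 and TWIK-2, 2 were lower, 1 was higher and 4 had no call. *P2ry12* fell from 4835 ± 786 to 169 ± 26.7 CPM (SD, n = 4 each; log2 fold change -4.84, SE 0.21, edgeR adjusted p = 9.76e-06). *Pycard*, the inflammasome adaptor ASC, was at 116 ± 30.6 and 45.1 ± 10.8 CPM (log2 fold change -1.37, edgeR adjusted p = 0.00688). *Il1b*, the cytokine released after inflammasome activation, was at 45.6, 78.4, 30.9 and 23.2 CPM in controls and 122, 134, 431 and 427 CPM in mutants (log2 fold change 2.64, SE 0.55, edgeR adjusted p = 0.0147), and its call was lost without control 3 (edgeR adjusted p = 0.0516) and with the replicate number as a block (0.0669). Over all 100 related genes of these lists 73 were tested, with 3 higher, 14 lower and 56 without a call, and a median log2 fold change of -0.14. Among all genes tested, 4.36% were higher and 7.97% lower.

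**Figure D3:**
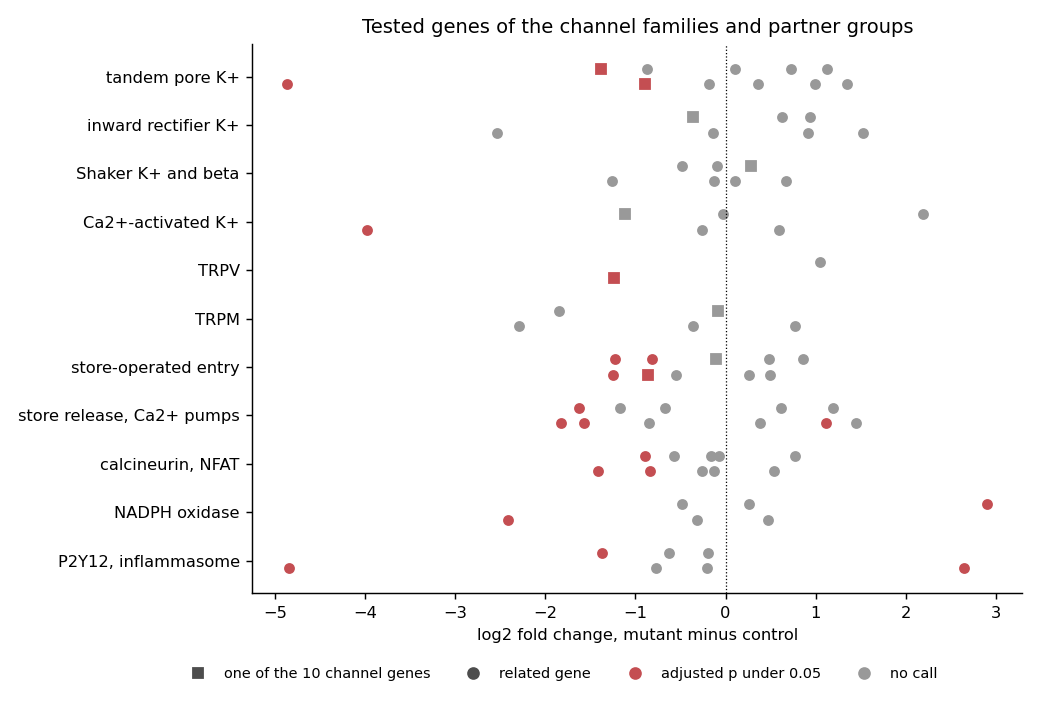
Log2 fold change of mutants over controls for every tested gene of the 11 family and partner groups, 1 row per group, each point 1 gene and vertical offsets only for legibility. Squares are among the 10 channel genes and circles are related genes; red marks an edgeR adjusted p under 0.05. The red points furthest to the left are *Kcnk12* at -4.86 and *P2ry12* at -4.84, and the 3 red points to the right of 0 are *Cybb* at 2.91, *Il1b* at 2.64 and *Atp2b1* at 1.11.

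Levels of different genes were compared as CPM per kilobase of exon. In controls the order was *Orai1* at 115, *Kcnk13* at 39.3, *Kcnk6* at 33.1, *Trpv2* at 25.9, *Hvcn1* at 23.3, *Kcna3* at 12.1, *Stim1* at 3.50, *Kcnn4* at 1.90, *Trpm2* at 1.67 and *Kcnj2* at 0.833 CPM per kilobase. The ranges over the 4 controls overlapped between neighbours from *Kcnk13* to *Hvcn1* and from *Stim1* to *Trpm2*, so those orders are not resolved, and the steps after *Orai1*, *Hvcn1*, *Kcna3* and *Trpm2* exceeded the spread. The level of *Hvcn1* depends on the exon length taken. In an alternative added after the values were seen, the same counts were divided by only the length not shared with *Tctn1*. The level then came to 41.8 CPM per kilobase in controls, with a range of 36.2 to 44.5 that overlapped that of *Kcnk13*. This alternative holds only if no counted read lay in the shared stretch, which was not given. In mutants *Orai1* stayed first at 63.6 and *Kcnk13* second at 21.2 CPM per kilobase. *Kcna3* at 14.7 came next, with *Kcnk6* at 12.7 and *Trpv2* at 11, and the ranges of these neighbours from *Kcnk13* to *Trpv2* overlapped. *Hvcn1* at 3.86 CPM per kilobase then stood with *Stim1* at 3.25, and *Trpm2* at 1.58, *Kcnn4* at 0.873 and *Kcnj2* at 0.648 followed. From *Hvcn1* to *Kcnj2* each neighbouring pair overlapped. With its counts divided by the unshared length, the mutant level of *Hvcn1* came to 6.92 CPM per kilobase. Its range of 5.19 to 8.25 then lay between those of *Trpv2* and *Stim1* and overlapped neither. Whichever length was taken, it scaled both groups alike, and control and mutant ranges of *Hvcn1* were separated by the widest gap of the 10 as a ratio, from 4.60 to 20.2 CPM per kilobase over all exons.

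**Figure D4:**
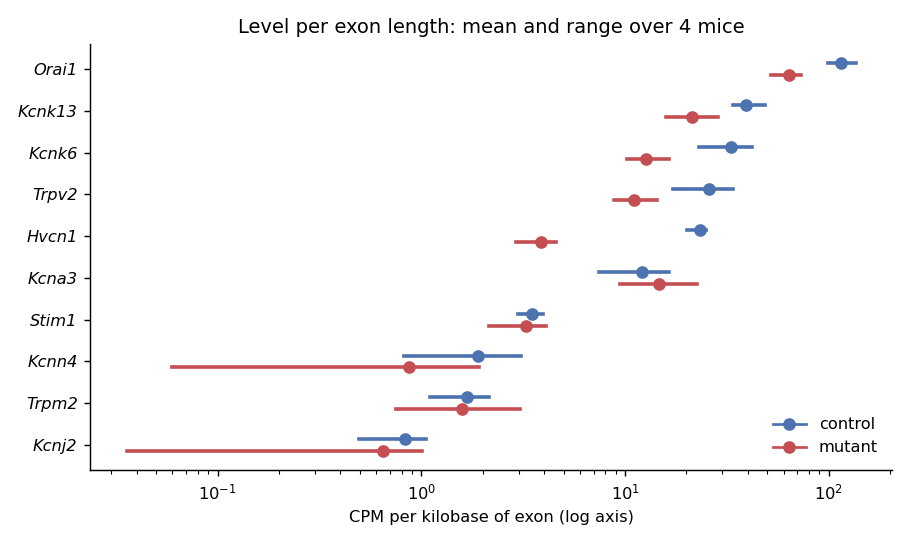
Level of the 10 channel genes in CPM per kilobase of exon (log axis), ordered by the control mean. Points are means and lines the range over 4 mice, blue for control and red for mutant. *Orai1* is highest in both groups at 115 and 63.6, and *Hvcn1* goes from 23.3 to 3.86. The place of *Hvcn1* among the other genes rests on its full exon length, part of which is shared with *Tctn1*. With the same counts divided by the unshared length alone, its levels would be 41.8 and 6.92.

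The spread between mice differed among the genes. The SD was 9.08% of the mean for *Hvcn1* and 11.2% for *Stim1* in controls, and 55.1% for *Kcnn4*. In mutants it was 13.8% for *Orai1*, against 66.3%, 68.4% and 89.2% for *Trpm2*, *Kcnj2* and *Kcnn4*. The 5 called genes had at least 374 counts in every library, and the 2 with the fewest, *Kcnj2* and *Kcnn4*, had as few as 7 and 11.

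Other genes followed the pattern of *Kcnk13* over the 8 libraries closely. Among 10344 genes with a mean of at least 3 on the log2 CPM scale, the 3 with the smallest root mean square difference in centred log2 CPM were *Zfp746* at 0.122, *Ttpal* at 0.131 and *Gmpr2* at 0.152. *Zfp746* was at 38.9, 47.7, 57.0 and 44.2 CPM in controls and 22.4, 24.6, 33.4 and 18.4 CPM in mutants, with replicate 3 highest in both groups as for *Kcnk13*. The likeness is a description over 8 libraries that share the split by group.

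**Figure D5:**
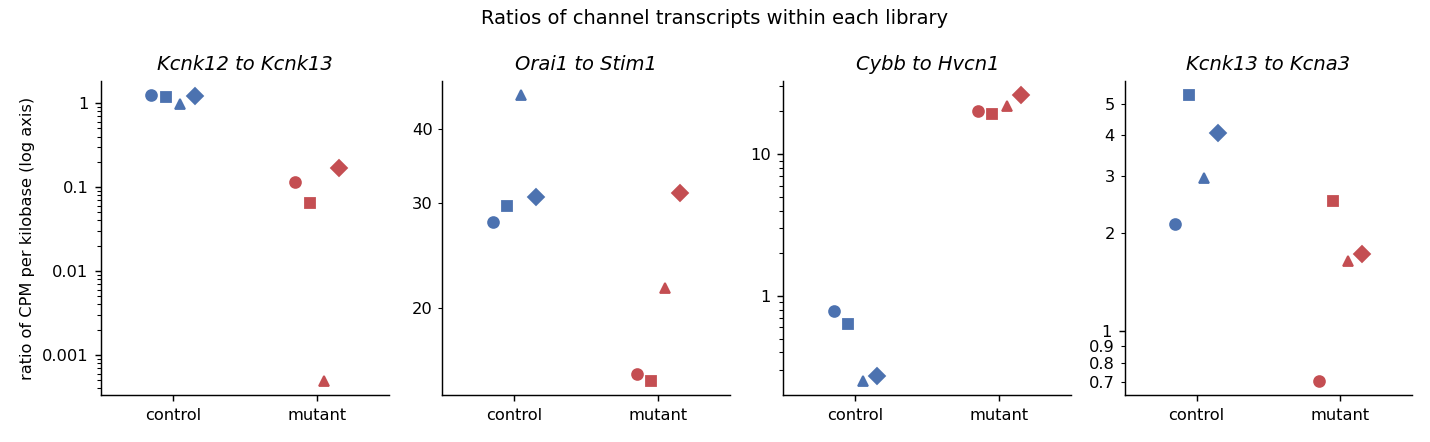
Ratios of CPM per kilobase of exon within each library (log axes) for 4 pairs of genes, with 1 point per mouse and the same symbol for the same replicate number. The ratio of *Kcnk12* to *Kcnk13* falls from 0.971 to 1.24 in controls to 0.167 or less in mutants. With full exon lengths, that of *Cybb* to *Hvcn1* rises from at most 0.788 to at least 19.1. With the same *Hvcn1* counts divided by only the exon length not shared with *Tctn1*, these limits are 0.440 and 10.6. The other 2 ratios overlap between groups.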

How the data were processed

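Sorted microglia of 4 control and 4 mutant mice were profiled by RNA sequencing. Per the labels and the study's methods, the authors aligned reads to mm10, counted them on genes with featureCounts and deposited raw counts, not normalized; the aligner named is Rsubread, and the annotation is not given in the sources used here. The labels describe single-end unstranded Nextera XT libraries and the methods another kit, and the methods name another deposit for these mutants, so the libraries were taken as labelled. The authors' table of their DESeq2 1.28 comparison (log2 fold changes and p-values) was not used.

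From the counts, genes reaching 10 counts in 4 or more of the 8 libraries were tested with edgeR 4.0.16 in R 4.3.3 (TMM, glmQLFit, glmQLFTest, no block). Benjamini-Hochberg adjustment ran over the 20153 genes tested, and an adjusted p under 0.05 made a call. SEs were the log2 fold change over the square root of F. CPM were scaled by TMM, and levels per kilobase used exon lengths of GENCODE M21 on GRCm38 (55480 of 55573 gene identifiers matched). Libraries held 35639502 to 41946479 counts; the biological coefficient of variation was 0.542, so the spread between mice limits precision. Exons and 50-base words shared with other genes were searched for each of the 10 genes; beyond *Hvcn1*, at most 2.12% of words were shared. The step was tested on simulated data. Alternatives were DESeq2 1.42.0, RLE factors, library totals, other count filters, a replicate block and each mouse left out; the unshared exon length of *Hvcn1* was added after seeing the data.

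The genes and lists were chosen with earlier results of these data known. Named genes are the 10, in each other list up to 4 called genes with the largest fold change or, with none called, the 2 best expressed, the Smad and sex-linked checks, and the 3 genes most like *Kcnk13*.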

Additional observations from a re-analysis of the deposited data

Results flagged for a closer look

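In groups of 4, a library was marked where its gap to the nearest value, over the range of the group, exceeded Dixon's 95% critical value. Chance marks about 1 in 20 groups, and 7 of 78 groups were marked, none of them of the 10 channel genes. Among controls, *Kcnj10* was high in control 1 at 36.5 CPM and *Trpm3* low in control 3 at 48.6 CPM. Among mutants, *Trpm7* and *Plcb2* were high in mutant 1 at 30.5 and 19.0 CPM, *Nfatc1* high in mutant 3 at 94.7 CPM, *Kcnma1* low in mutant 4 at 0 CPM and *Xist* high in mutant 2 at 0.562 CPM.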

How the results depend on the processing

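The 10 channel genes gave 4 or 5 calls, all lower, under every alternative run. *Hvcn1*, *Kcnk6*, *Trpv2* and *Orai1* stayed called in all of them, and *Kcnk13* lost its call with any of 6 mice left out. Over all genes, 2485 calls became 4266 with DESeq2, of which 2468 were shared, and 1567 to 2499 with 1 mouse left out; the cause was not tested. The lowest counts came without control 2 (1572) and control 3 (1567). *Trpm2* turned to 0.015 and *Stim1* to 0.013 with library totals, which moved the median log2 fold change of all genes to 0.13. With 1 mouse left out the log2 fold change ran from -0.627 to 0.147 for *Trpm2*, from -0.24 to 0.046 for *Stim1* and from -0.656 to 0.032 for *Kcnj2*; none of these was called in any fit. *Kcnj2* has no value where 10 counts are required in all 8 libraries. The replicate block gave 2383 calls, 2001 of them shared, and the same 5 calls among the channel genes, with 2 higher and 15 lower related genes. *Nfatc1* and *Smad3* also missed the threshold in fits of all 8 mice, *Nfatc1* with RLE factors (0.0502), library totals (0.056) and no count filter (0.0634) and *Smad3* with no count filter (0.051). The numbers 1 to 4 were not taken as pairs in the main fit. Same-numbered samples correlated across genes in their deviations from the group means at 0.165, 0.018, 0.146 and 0.114. Differently numbered samples gave -0.223 to 0.107, so numbers 1, 3 and 4 lay above all of these, while control 2 and mutant 2 did not correlate best with each other. A pairing by number therefore remains possible. With the block the SE was smaller for *Kcnk13*, *Kcnk6*, *Kcna3*, *Trpm2* and *Orai1* and larger for the other channel genes. Depth limits *Kcnj2* and *Kcnn4*, which fell to 7 and 11 counts in 1 mutant each.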

Other observations

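Summed over the other marker lists, neurons gave 33.0 to 302 CPM in controls and 93.1 to 300 CPM in mutants (0 called), oligodendrocytes 708 to 4503 and 1164 to 3795 (0 called), endothelium 15.3 to 25.3 and 4.28 to 12.2 (0 called), monocytes and neutrophils 474 to 1658 and 267 to 818 (0 called), lymphocytes 68.8 to 95.1 and 105 to 166 (2 higher, *Cd3e* and *Nkg7*) and astrocytes 1312 to 1845 and 177 to 600 (1 lower, *Slc1a3*, at 1349 ± 290 and 78.9 ± 63.0 CPM). The astrocyte sum in controls was mostly *Slc1a3*, which alone was at 1084 to 1758 CPM there. The other 5 astrocyte markers had no call, and the median log2 fold change of the 6 was 0.18.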
